A study of Mus musculus with 8 samples.

Results

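The 9 genes described here, Yap1, Wwtr1, Tead1, Lats1, Lats2, Amotl1, Amotl2, Ccn1 and Ccn2, belong to the Hippo pathway and its transcriptional output, and were followed in nuclei of the mouse optic nerve. They were chosen by symbol as parts of one mechanosensitive pathway, not by a threshold on a measured value, and are 9 of the 33696 genes in the count tables. Single-nucleus RNA sequencing with 10x 3′ chemistry had been run on 8 libraries, each from 6 pooled optic nerves of female mice at 120 days of age. The 4 control libraries carried Piezo2 f/f, a floxed allele of the gene for a mechanically gated ion channel, without cre. The 4 libraries labelled cKO carried Olig2-cre;Piezo2 f/f, in which cre is expressed from the Olig2 locus of the oligodendrocyte lineage. The floxed allele is thus shared by all 8 libraries, whereas the cre insertion, the change at the Olig2 locus and the intended loss of Piezo2 come together and cannot be told apart. Each library pools animals, so p-values between the genotypes within a cell type measure the spread between pools. Tests that compare cell types draw several summed counts from the same library. Where such a fit leaves out the library as a block, its p-values treat these sums as independent and do not measure that spread.

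Yap1 and Wwtr1 encode YAP and TAZ, transcriptional coactivators that do not bind DNA themselves and act through TEAD factors, one of which is encoded by Tead1. When the Hippo kinase cascade is active, the kinases encoded by Lats1 and Lats2 phosphorylate YAP and TAZ, which are then kept in the cytoplasm or degraded, whereas a stiff substrate, cell spreading and actin tension favour their entry into the nucleus. Angiomotin-like proteins, encoded by Amotl1 and Amotl2, bind YAP and TAZ, and Ccn1 and Ccn2 (formerly Cyr61 and Ctgf) encode secreted matricellular proteins that are classical YAP and TEAD targets. Much of this control acts on the location and phosphorylation of proteins, which RNA counts do not show.

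The libraries held 39628926 to 56541132 unique molecular identifiers (UMIs, each counted as 1 captured RNA molecule), and 37227 nuclei passed the filters, with a median of 2377 to 3314 UMIs per nucleus in a library. Pairs of libraries shared 1 to 10 nucleus barcodes, against 1.8 to 5.6 expected by chance. Nuclei were clustered without the 9 genes and the pathway lists used below and named from marker genes, which gave 19200 oligodendrocytes, 8286 astrocytes, 3457 fibroblasts, 1428 myeloid cells, 774 oligodendrocyte precursor cells (OPCs), 303 neurons, 291 endothelial cells and 254 committed OPCs, beside rarer or unnamed nuclei that were not tested. The authors regard their neuron cluster as probable carry-over of brain tissue next to the nerve. Of the 303 neurons here, 102 came from control replicate 3, so values of neurons may not describe the nerve itself. The unnamed nuclei included 20 led by the B-cell genes Bank1, Pax5 and Cd79b. Committed OPCs were 1 cluster with 2.43 times the median UMIs of a nucleus of its library and with marker scores of 0.31 for oligodendrocytes and 0.41 for OPCs beside 1.66 for its own list. Other clusters above a score of 0.25 for another type and above 1.3 times the median UMIs were left unnamed as mixtures, so the values of committed OPCs may hold doublets, whose part was not tested. UMIs of the nuclei of 1 cell type were added up in each library, and a level is given in CPM, the count of a gene scaled to the same total in every such sum. The summed oligodendrocyte markers were at 18831 to 25183 CPM in oligodendrocytes of the control libraries and at 21329.8 to 25299.7 CPM in those labelled cKO. Levels are compared between cell types for a gene, and not between genes, since they are not scaled by transcript length.

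The 9 genes lie on 5 chromosomes of GRCm39. Yap1 spans 72.7 kb (chr9:7932000-8004661, minus strand), Wwtr1 120.3 kb (chr3:57363067-57483331, minus strand) and Tead1 227.5 kb (chr7:112278522-112506014, plus strand). The kinase genes are Lats1 (chr10:7556736-7592226, plus strand) and Lats2 (chr14:57926960-57995845, minus strand), and the angiomotin-like genes are Amotl1 (chr9:14453262-14556352, minus strand) and Amotl2 (chr9:102593836-102610617, plus strand). Ccn1 (chr3:145352720-145355738, minus strand) and Ccn2 (chr10:24471333-24474900, plus strand) are compact genes of 3.0 and 3.6 kb.

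TEAD factors recognise the core motif GGAATG. The 250 bases before each annotated start of the genes were searched for it on both strands in RefSeq promoters of GRCm38.p6. Promoters were found for 7 of the 9 genes, all but Tead1 and Ccn2. Yap1, Wwtr1, Ccn1 and Amotl2 had 1 match each, at 141, 136, 103 and 65 bases before the start, and none was in the windows of Lats1, Lats2 and Amotl1. A further annotated start of Wwtr1 lies 170 bases after the same match, and its overlapping window (chr3:57575877-57576126) is not printed. The motif was present in 12.6% of 32851 promoters of this length. The windows with a match are given 5′ to 3′ in the direction of the gene with the motif or its reverse complement in capitals and with GRCm38.p6 coordinates, because the motif is what a TEAD factor would bind in a gene of the pathway.
Yap1, chr9:8004597-8004846, minus strand: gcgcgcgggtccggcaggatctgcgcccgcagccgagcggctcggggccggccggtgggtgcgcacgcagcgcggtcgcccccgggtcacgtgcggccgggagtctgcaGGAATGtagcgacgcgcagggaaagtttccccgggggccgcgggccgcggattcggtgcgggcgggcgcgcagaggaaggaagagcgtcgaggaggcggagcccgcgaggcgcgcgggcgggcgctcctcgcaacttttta
Wwtr1, chr3:57575911-57576160, minus strand: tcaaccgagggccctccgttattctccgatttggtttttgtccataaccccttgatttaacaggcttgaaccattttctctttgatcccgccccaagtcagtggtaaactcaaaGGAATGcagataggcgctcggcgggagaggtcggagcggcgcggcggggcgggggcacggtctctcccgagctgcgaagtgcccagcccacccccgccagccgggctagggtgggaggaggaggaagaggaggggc
Ccn1, chr3:145649986-145650235, minus strand: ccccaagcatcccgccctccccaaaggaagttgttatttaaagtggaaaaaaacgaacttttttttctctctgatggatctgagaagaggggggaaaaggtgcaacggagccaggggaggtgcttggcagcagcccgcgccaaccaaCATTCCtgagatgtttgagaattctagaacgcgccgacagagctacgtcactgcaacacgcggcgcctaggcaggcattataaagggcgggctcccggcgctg
Amotl2, chr9:102717554-102717803, plus strand: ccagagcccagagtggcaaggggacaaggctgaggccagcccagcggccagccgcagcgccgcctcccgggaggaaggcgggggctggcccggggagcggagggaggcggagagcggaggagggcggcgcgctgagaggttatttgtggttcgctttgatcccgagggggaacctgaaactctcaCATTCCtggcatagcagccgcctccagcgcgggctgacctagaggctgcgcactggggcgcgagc

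The coactivator genes were high in fibroblasts, astrocytes and endothelial cells and low in oligodendrocytes. Yap1 was at 82.8 to 128 CPM (median 103) in fibroblasts, at 81.5 to 104 CPM (median 88.4) in astrocytes and at 31.2 to 108 CPM (median 81.0) in endothelial cells of the 8 libraries. In oligodendrocytes Yap1 was at 2.79 to 5.82 CPM (median 3.22), so that no library of the other 3 types came near any library of oligodendrocytes. Oligodendrocytes had the lowest mean, but their libraries overlapped those of committed OPCs (0 to 35.4 CPM), OPCs (0 to 12.7 CPM), myeloid cells (0 to 16.8 CPM) and neurons (0 to 16.4 CPM). The mean of fibroblasts was 29.3-fold that of oligodendrocytes, a level that is not told apart from background below, so the fold is a lower limit. Against the mean of the other 7 types, edgeR's quasi-likelihood test with Benjamini-Hochberg adjustment over 10373 genes gave Yap1 log2 differences of 2.89 ± 0.12 (SE) in fibroblasts, 2.75 ± 0.12 in astrocytes and 2.34 ± 0.27 in endothelial cells (adjusted p = 2.51e-33, 6.33e-33 and 1.14e-11). The main edgeR fit of the cell types left out the library as a block. Sums of different types from the same library thus counted as independent, and its small p-values are no measure of the spread between pools. Throughout, a call means an adjusted p below 0.05 and an absolute log2 difference above 0.5. Yap1 was called lower in oligodendrocytes (-2.33 ± 0.20), myeloid cells (-1.90 ± 0.35), OPCs (-1.78 ± 0.38) and neurons (-1.57 ± 0.39), and committed OPCs did not pass (-0.40 ± 0.34, adjusted p = 0.383).

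Wwtr1, which encodes TAZ, had its highest mean in endothelial cells and its lowest in oligodendrocytes. It was at 141 to 420.4 CPM (median 353) in endothelial cells, at 200.1 to 273 CPM (median 214) in fibroblasts, at 132 to 263 CPM (median 157) in astrocytes and at 3.45 to 6.64 CPM (median 4.66) in oligodendrocytes. The lowest endothelial library was below every fibroblast library, and the step between these types did not pass (adjusted p = 0.0984, exact permutation test). That library was still above every oligodendrocyte library. The means of endothelial cells and oligodendrocytes differed 65.6-fold, again a lower limit over a level not told apart from background. With the ambient profile subtracted, the oligodendrocyte differences were -7.47 ± 0.39 for Wwtr1 and -5.35 ± 0.54 for Yap1. Subtraction leaves few counts of a gene that is at the ambient level, so a lower value was set in advance. The size of these 2 values is therefore not a measured level and no check of the calls. The log2 difference of Wwtr1 from the other types was 3.28 ± 0.17 in endothelial cells, 2.67 ± 0.11 in fibroblasts and 2.34 ± 0.11 in astrocytes, against -3.24 ± 0.17 in oligodendrocytes, -1.78 ± 0.28 in OPCs, -1.70 ± 0.25 in myeloid cells and -1.36 ± 0.29 in neurons, each past the test. Over the 8 cell types, Yap1 and Wwtr1 had a Pearson correlation of 0.966 of their mean levels, the highest among the 36 pairs of the 9 genes. The 8 points share their libraries, so this value is a description.

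Tead1 followed the coactivators in astrocytes and fibroblasts but was also raised in neurons. It was at 239.9 to 363 CPM (median 314) in astrocytes, at 236 to 362 CPM (median 256) in fibroblasts, at 115 to 185 CPM (median 149.8) in neurons and at 90.1 to 182 CPM (median 122) in endothelial cells. Oligodendrocytes had the lowest mean, with 8.48 to 19.4 CPM (median 11.3). Their libraries overlapped those of myeloid cells (8.02 to 40.0 CPM) and committed OPCs (10.7 to 109.8 CPM). OPCs lay between oligodendrocytes and endothelial cells with 45.9 to 87.6 CPM (median 61.0). Tead1 differed from the other types by 2.16 ± 0.10 in astrocytes, 1.87 ± 0.10 in fibroblasts, 1.02 ± 0.15 in neurons and 0.57 ± 0.20 in endothelial cells on the log2 scale (edgeR, adjusted p = 3.18e-32, 2.06e-27, 1.42e-08 and 0.0134). The endothelial call held in 13 of 17 settings, with log2 differences of 0.29 to 0.94. Tead1 was lower in oligodendrocytes (-2.79 ± 0.14) and myeloid cells (-2.11 ± 0.20). The small difference in committed OPCs (-0.50 ± 0.19, adjusted p = 0.029 by edgeR) turned sign in the control libraries alone, where it was 0.034.

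The kinase genes went separate ways. Lats1 was called in none of the 8 cell types. Its adjusted p was below 0.05 by edgeR in astrocytes (0.27 ± 0.09, adjusted p = 0.00841) and in oligodendrocytes (0.25 ± 0.09, adjusted p = 0.00939), but these log2 differences lay under the limit of 0.5. The edgeR fit scales the sums by TMM, which CPM leaves out, so small differences can disagree with the order in CPM. Oligodendrocytes had a mean of 71.9 CPM, below endothelial cells with 83.3 CPM, whose log2 difference was only 0.14 ± 0.19. The mean of Lats1 ran from 55.5 ± 12.5 CPM (SD, n = 8) in OPCs to 85.2 ± 9.42 CPM in astrocytes, a 1.53-fold range. Lats2 was higher in astrocytes (153 ± 27.5 CPM, log2 difference 1.49 ± 0.10), endothelial cells (142 ± 37.3 CPM, 1.15 ± 0.19) and fibroblasts (102 ± 22.5 CPM, 0.73 ± 0.11), the types in which Yap1 and Wwtr1 were also higher. It was lower in neurons (13.0 ± 11.5 CPM, -2.36 ± 0.25), oligodendrocytes (33.7 ± 4.39 CPM, -0.73 ± 0.11) and OPCs (-0.53 ± 0.18), although the last became 0.008 when every nucleus was thinned to 1000 UMIs. Oligodendrocytes thus had little Yap1 and Wwtr1 beside Lats1 at 57.1 to 81.1 CPM (median 72.8), a level within the range of the other types.

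**Figure D1:**
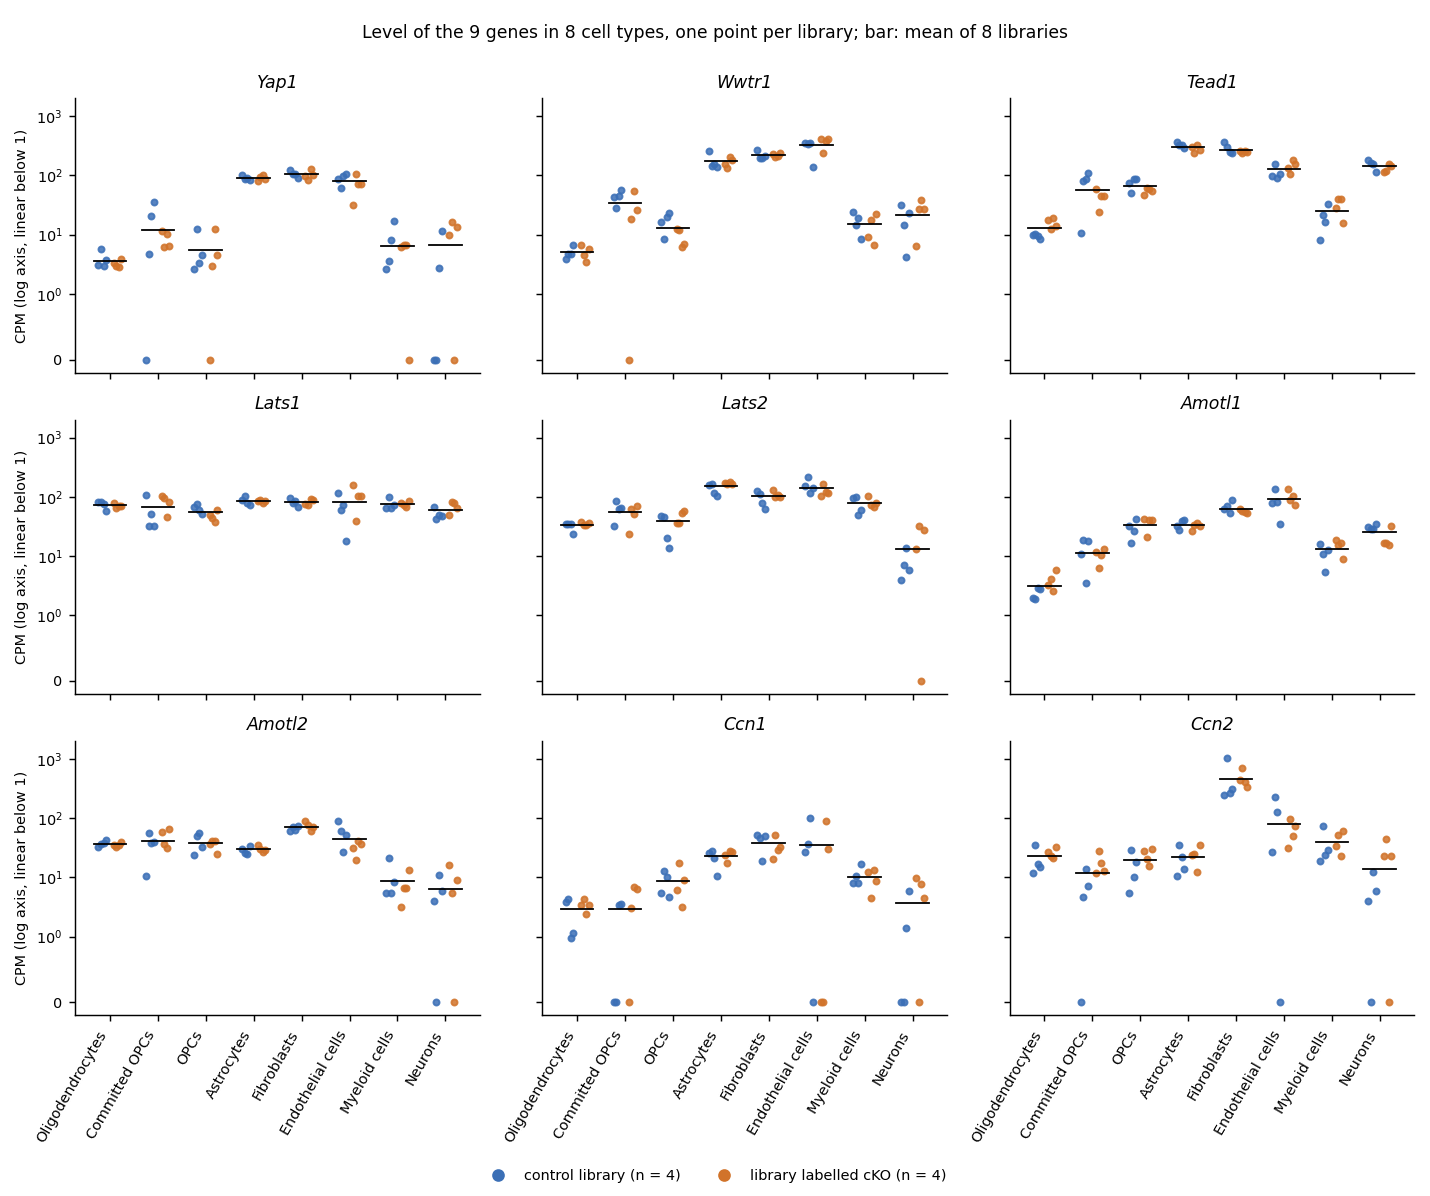
Level of each of the 9 genes in 8 cell types (CPM of the summed counts), with a point per library (4 control libraries and 4 labelled cKO, by colour) and a bar at the mean. The mean of Lats1 stays between 55.5 and 85.2 CPM, whereas that of Yap1 runs from 3.55 CPM in oligodendrocytes to 104 CPM in fibroblasts.

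The angiomotin-like genes differed from each other. Amotl1 was higher in endothelial cells (91.0 ± 32.8 CPM, log2 difference 2.07 ± 0.22), fibroblasts (62.4 ± 11.3 CPM, 1.53 ± 0.11), OPCs (32.8 ± 10.3 CPM, 0.77 ± 0.19) and astrocytes (33.2 ± 5.06 CPM, 0.58 ± 0.11). It was lower in oligodendrocytes (3.14 ± 1.29 CPM, -2.96 ± 0.15), committed OPCs (11.4 ± 5.17 CPM, -1.19 ± 0.29) and myeloid cells (13.0 ± 4.48 CPM, -1.09 ± 0.23). In the oligodendrocyte lineage the mean of Amotl1 was thus highest in OPCs, lower in committed OPCs and lowest in oligodendrocytes. Amotl2 was the one gene of the 9 that was called higher in oligodendrocytes than in the mean of the other types, at 32.3 to 43.5 CPM (log2 difference 0.67 ± 0.10, adjusted p = 1.68e-08 by edgeR). It was also higher in fibroblasts (70.9 ± 9.57 CPM, 1.40 ± 0.10), committed OPCs (0.69 ± 0.19) and OPCs (0.63 ± 0.17), and lower in myeloid cells (8.79 ± 5.93 CPM, -2.09 ± 0.24) and neurons (6.46 ± 5.57 CPM, -1.91 ± 0.28). The mean of Amotl2 in oligodendrocytes, 36.7 CPM, was below those of fibroblasts, endothelial cells (44.7 CPM), committed OPCs (41.8 CPM) and OPCs (38.5 CPM). Only astrocytes (29.8 CPM), myeloid cells and neurons had lower means, so the oligodendrocyte call is no rank among the types.

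The target genes Ccn1 and Ccn2 had their highest means in fibroblasts. Ccn1 was at 18.9 to 51.8 CPM (median 39.8) in fibroblasts and at 10.5 to 27.7 CPM (median 24.8) in astrocytes, against 0.974 to 4.29 CPM (median 3.41) in oligodendrocytes. In endothelial cells Ccn1 spread up to 99.1 CPM, and 3 of the 8 libraries held no Ccn1 UMI there, a count that allows up to 52.8 CPM by counting error alone. Ccn1 differed from the other types by 2.04 ± 0.21 in fibroblasts, 1.96 ± 0.45 in endothelial cells and 1.32 ± 0.21 in astrocytes (log2, adjusted p = 4.36e-14, 1.54e-04 and 7.08e-08 by edgeR). Ccn1 was called lower in neurons (-1.71 ± 0.62), oligodendrocytes (-1.70 ± 0.28) and committed OPCs (-1.63 ± 0.62). The call held in 12 of 14 settings in neurons and in 9 of 13 in committed OPCs.

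Ccn2, which encodes connective tissue growth factor, had the largest difference of any of the 72 gene and cell type pairs. Its fibroblast level was 247, 1024, 267 and 306 CPM in the control libraries (replicates 1 to 4) and 440.2, 704, 406 and 337 CPM in cKO replicates 10 to 13. Control replicate 2 stood above the other libraries, and the lowest of the 8 was still above the mean of every other cell type, of which endothelial cells had the highest (79.6 ± 73.4 CPM). The log2 difference of Ccn2 was 4.10 ± 0.16 in fibroblasts (adjusted p = 1.6e-35 by edgeR) and 1.11 ± 0.41 in endothelial cells, and it was lower in committed OPCs (-1.61 ± 0.49), neurons (-1.38 ± 0.47), astrocytes (-0.84 ± 0.23) and oligodendrocytes (-0.54 ± 0.22). Over 17 settings the Ccn2 call held in all 17 in fibroblasts, in 14 in astrocytes, 14 in neurons, 12 in endothelial cells and 11 in oligodendrocytes, and in 13 of 16 in committed OPCs. The neuron value changed sign when an ambient profile was subtracted (0.40 ± 0.45). Mean Ccn2 was 22.7 CPM in oligodendrocytes and 22.2 CPM in astrocytes, above OPCs (19.6 CPM, not called), neurons (13.9 CPM) and committed OPCs (11.9 CPM). Each of the lower calls is against a mean that includes the high fibroblast level.

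Of the 72 pairs of a gene and a cell type, 52 passed the test, 26 higher and 26 lower, against 44.0% of all pairs tested (22.5% higher and 21.6% lower). Fibroblasts had 8 of the 9 genes higher and 0 lower (all genes 21.0% and 20.4%), endothelial cells 7 and 0 (all genes 21.5% and 26.2%) and astrocytes 6 and 1 (all genes 23.3% and 18.8%). The median log2 difference of the 9 genes was 1.87 in fibroblasts, 1.15 in endothelial cells and 1.32 in astrocytes, beside -0.01, -0.20 and -0.04 for all genes tested. Oligodendrocytes had 1 gene higher and 7 lower (all genes 22.5% and 26.7%), with a median of -1.70 beside 0.03. Myeloid cells had 0 higher and 5 lower (all genes 22.4% and 29.7%), neurons 1 and 6 (25.4% and 25.6%), OPCs 2 and 3 (21.0% and 16.2%) and committed OPCs 1 and 4 (22.9% and 8.75%).

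**Figure D2:**
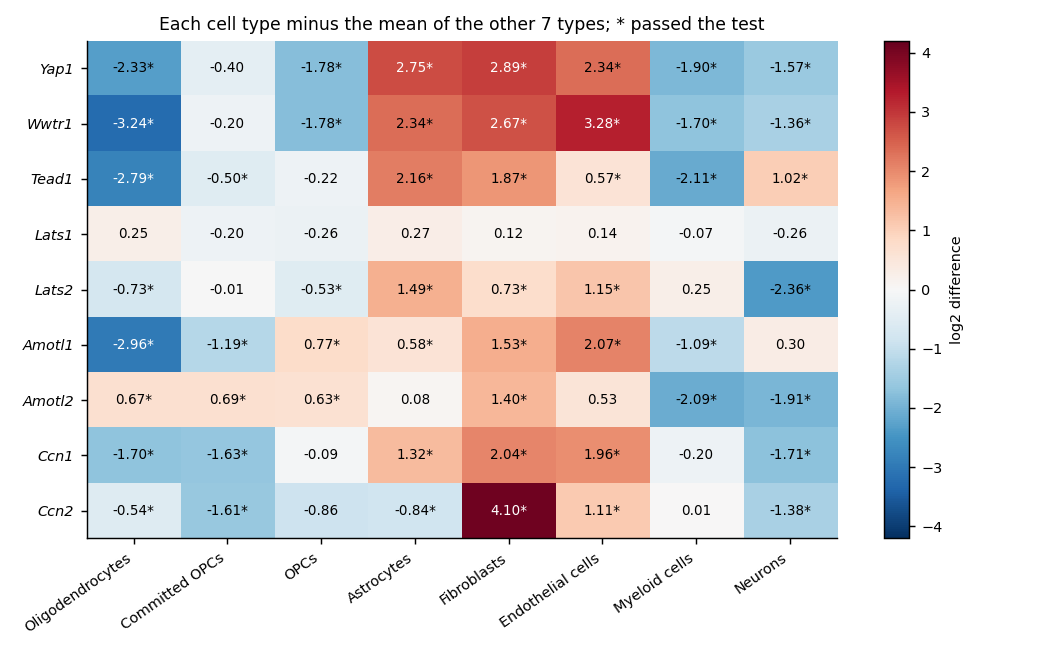
Log2 difference of each of the 9 genes in each cell type from the mean of the other 7 types (edgeR), printed in each field and coloured from blue (lower) to red (higher), with an asterisk where a gene was called. Most values of fibroblasts, endothelial cells and astrocytes are above 0, those of oligodendrocytes are below 0 for 7 called genes and above 0 for Amotl2 (0.67), and those of Lats1 stay between -0.26 and 0.27.

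Many neighbours in the order of the cell types did not differ beyond their spread. For each gene the 8 types were ordered by mean level, and each type was compared with the next by an exact sign-flip permutation test over the 8 libraries (two-sided, log2(CPM + 1), Benjamini-Hochberg adjustment over 63 pairs). The smallest p that 8 libraries allow, 0.00781, gave an adjusted p of 0.0352 in this exact test, and 14 of the 63 pairs reached it, each with the same direction in 8 of 8 libraries. Yap1 passed only at the step from endothelial cells to committed OPCs (3.12 ± 1.64, SD, on the log2 scale), so fibroblasts, astrocytes and endothelial cells were not put in order. Wwtr1 passed from fibroblasts to astrocytes (0.39 ± 0.22), from astrocytes to committed OPCs (2.84 ± 1.89) and from OPCs to oligodendrocytes (1.13 ± 0.60). Tead1 passed from astrocytes to fibroblasts (0.18 ± 0.15), from fibroblasts to neurons (0.91 ± 0.16) and from endothelial cells to OPCs (0.97 ± 0.67), while neurons and endothelial cells were not separated. Lats2 passed from fibroblasts to myeloid cells (0.39 ± 0.23) and from oligodendrocytes to neurons (1.89 ± 1.58), Amotl1 from fibroblasts to astrocytes (0.89 ± 0.31) and from committed OPCs to oligodendrocytes (1.51 ± 0.89), and Amotl2 from astrocytes to myeloid cells (1.83 ± 0.85). Ccn2 passed from fibroblasts to endothelial cells (3.30 ± 2.16) and from myeloid cells to oligodendrocytes (0.71 ± 0.36). In the latter 2 types Ccn2 was only at 1.05 and 0.813 times the level estimated below for RNA from broken cells. The part of such RNA in this step was not tested. No pair passed for Lats1 or Ccn1. Thinned to 1000 UMIs a nucleus, none of the 63 pairs reached the threshold, although the smallest p of the exact test was still 0.00781. At this floor a pair passes the adjustment only if enough pairs reach the floor together. The thinned result thus does not show that every step was lost. With any 1 library left out none of the pairs passed either, but 7 libraries allow no p below 0.0156 in the exact test. At that limit 14 pairs are too few to pass, so leaving out a library is no check of them.

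RNA released from broken cells enters every droplet, so low levels were set against the level that such ambient RNA would give. The ambient share of each library and cell type was estimated from marker genes of other types, and multiplied by the profile of droplets with at least 100 and under 500 UMIs. The share was 13.9 to 20.8% in oligodendrocytes, 10.2 to 19.1% in astrocytes and 10.6 to 17.0% in fibroblasts. In committed OPCs the estimate was 17.2 to 82.5% (median 22.6%). It rested there, as in oligodendrocytes, on astrocyte markers alone, so astrocyte RNA from doublets would be counted as ambient. The part of doublets in the high values was not tested. In oligodendrocytes Yap1, Wwtr1, Amotl1, Ccn1 and Ccn2 were at 0.949, 0.855, 0.918, 0.713 and 0.813 times the ambient level, and above it in 2, 2, 2, 1 and 0 of 8 libraries. The estimate can be too high, as Ccn2 and Ccn1 in committed OPCs were at only 0.234 and 0.405 times it. The UMIs of these 5 genes in oligodendrocytes therefore cannot be told apart from background, but are not shown to be background alone. Tead1 was at 2.06 times, Lats2 at 4.04 times, Amotl2 at 4.64 times and Lats1 at 9.13 times the ambient level, each above it in 8 of 8 libraries. Ccn2 was close to the ambient level in astrocytes (0.948 times), OPCs (0.810), myeloid cells (1.05) and neurons (0.958), but at 2.73 times it in endothelial cells and 20.9 times in fibroblasts. Yap1, Wwtr1 and Tead1 were at 28.9, 35.1 and 59.4 times the ambient level in astrocytes and at 34.5, 46.8 and 54.5 times in fibroblasts.

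**Figure D3:**
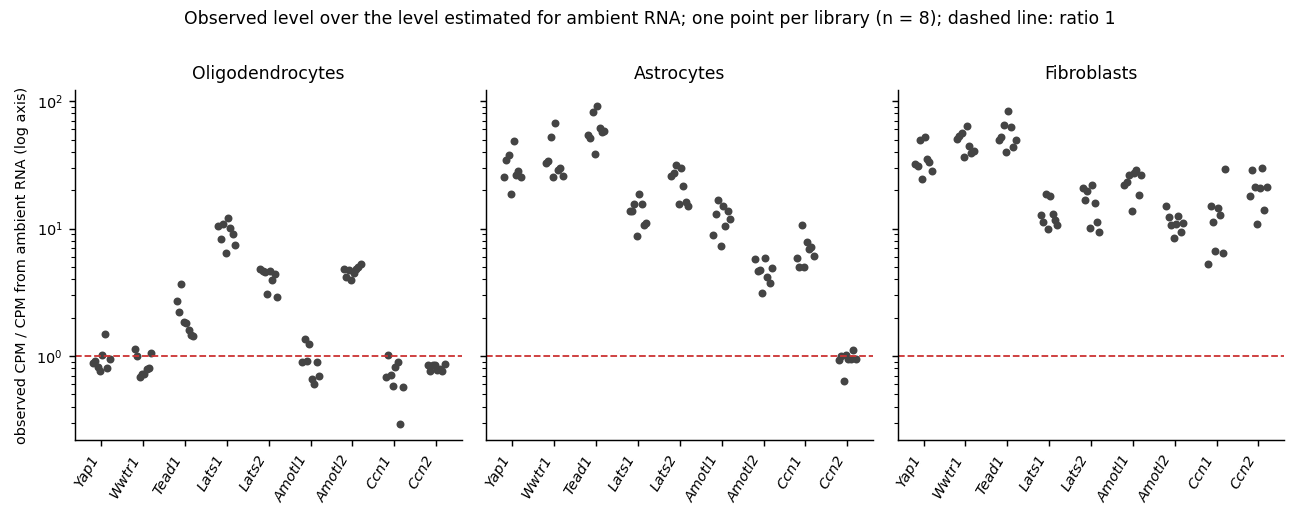
Observed level of each of the 9 genes divided by the level estimated for ambient RNA (log axis) in oligodendrocytes, astrocytes and fibroblasts, with a point per library (n = 8) and a line at a ratio of 1. In oligodendrocytes Yap1, Wwtr1, Amotl1, Ccn1 and Ccn2 lie around or below the line and Tead1 lies above it in 8 of 8 libraries, whereas Ccn2 in fibroblasts averages 20.9 times the ambient level.

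Within fibroblasts the target gene Ccn2 varied far more than the coactivators. Fibroblasts formed 4 clusters, which are described without a test because they were cut from the same nuclei. The cluster led by Lama1, Flrt2 and Cemip and holding Eln and Pi16 (1140 nuclei) had Ccn2 at 537, 1868, 670.4 and 763 CPM in the control libraries (replicates 1 to 4) and in the libraries labelled cKO (replicates 10 to 13) at 1094, 1386, 1213 and 687 CPM. The cluster led by Slc47a1 and Slc4a10 (1049 nuclei) had Ccn2 at 15.2, 242, 71.5 and 54.5 CPM and 51.2, 98.1, 84.4 and 53.2 CPM in the same order. Ccn2 was thus higher in the former in 8 of 8 libraries and 12.3-fold in the mean (1027 ± 452 against 83.8 ± 68.7 CPM, SD). Between the same clusters Tead1 was 2.20-fold higher (413 ± 47.5 against 188 ± 38.6 CPM), Lats2 1.66-fold, Wwtr1 1.54-fold and Lats1 1.18-fold. Yap1 spanned 1.08-fold over all 4 clusters. Amotl1 ranged 3.65-fold, down to 28.5 ± 11.3 CPM in a small cluster with Prg4 and Dpp4 (241 nuclei), and Amotl2 was highest, at 93.0 ± 14.2 CPM, in the cluster led by Slc6a20a (1027 nuclei). Piezo2 was at 853 ± 149 CPM in the cluster led by Slc47a1, 184 ± 63.9 CPM in that with Prg4, 126 ± 26.2 CPM in that led by Lama1 and 48.1 ± 21.8 CPM in that led by Slc6a20a.

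**Figure D4:**
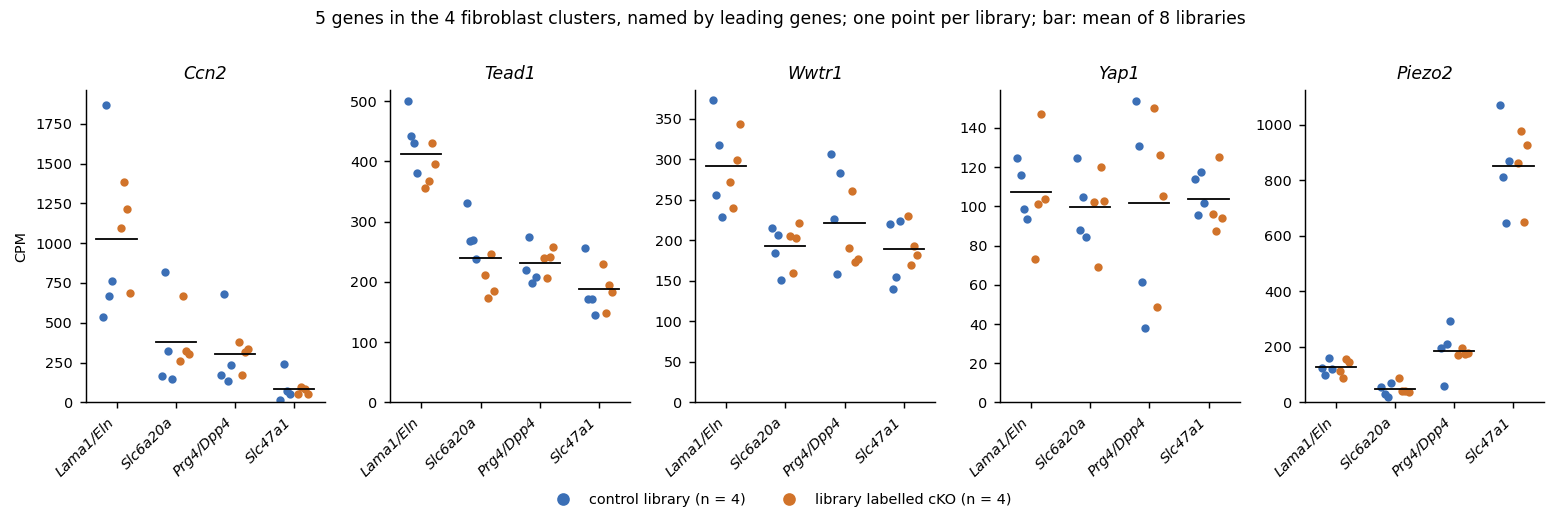
Level (CPM) of Ccn2, Tead1, Wwtr1, Yap1 and Piezo2 in the 4 fibroblast clusters, named by leading genes, with a point per library (control and labelled cKO by colour) and a bar at the mean of 8 libraries. Ccn2 runs from a mean of 1027 CPM in the Lama1 cluster down to 83.8 CPM in the Slc47a1 cluster, where Piezo2 is highest, and Yap1 stays between 99.6 and 107 CPM.

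Among the astrocyte clusters Ccn1 had the widest span of the 9 genes. Over the 8 astrocyte clusters with at least 3 libraries of each genotype, the means spanned 1.56-fold for Yap1, 1.67-fold for Wwtr1, 1.59-fold for Tead1 and 1.21-fold for Lats1. Ccn1 spanned 7.31-fold, with its highest mean, 59.3 ± 33.6 CPM, in a cluster with Iffo2 and Slc44a5 among its leading genes (490 nuclei). The mean of Tead1 was also highest in that cluster (407 ± 93.0 CPM). These clusters, too, are described without a test.

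The genes whose pattern over the 8 cell types was most like that of each of the 9 were named from 15199 genes by the Pearson correlation of mean log2(CPM + 1). The 8 points share libraries, so each correlation is a description. For Yap1 these were Sh3d21 (0.980), Sntb1 (0.979), which encodes a syntrophin of the dystrophin complex, and Gm9869 (0.977). For Wwtr1 they were Vcl (0.979), which encodes vinculin, an actin-binding protein of focal adhesions, Yap1 itself (0.966) and Nxn (0.966). Among the genes most like Tead1 were Arhgef17 (0.985) and Fbxo3 (0.961). Ccn2 was most like Igfbp6 (0.993), an insulin-like growth factor binding protein, Ccn3 (0.990), a member of its own family, and Sod3 (0.990), an extracellular superoxide dismutase. Ccn1 was most like Lrp10, Surf4 and Oat (0.968 to 0.953), Amotl1 like Ccdc6, Itpr1 and Dennd3 (0.972 to 0.941) and Amotl2 like Ing3, Trp53inp2 and Syne2 (0.976 to 0.943). Lats2 was most like Hint2, Parp12 and Tmed3 (0.976 to 0.960), and Lats1, which hardly varied, like Ptpmt1, Srsf5 and Sec23b (0.961 to 0.953).

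Further YAP and TAZ target genes were mostly higher in fibroblasts as well. Of 18 target genes beside Ccn1 and Ccn2, 14 were tested, and 11 were higher and 1 lower in fibroblasts (all genes 21.0% and 20.4%), with a median log2 difference of 2.04 beside -0.01 for all genes. The largest differences were those of Ptpn14 (3.72 ± 0.09), a phosphatase that also binds YAP, Igfbp3 (3.57 ± 0.15) and Dock5 (3.33 ± 0.08), an activator of Rac. In astrocytes 7 were higher and 6 lower (all genes 23.3% and 18.8%), led by Tgfb2 (3.58 ± 0.11), Ccdc80 (3.51 ± 0.18) and Myof (2.78 ± 0.12). In endothelial cells 3 were higher, Ptpn14 (3.81 ± 0.16), Myof (2.43 ± 0.20) and Crim1 (1.58 ± 0.12), and 3 lower (all genes 21.5% and 26.2%). In oligodendrocytes 2 were higher, Dock5 (2.61 ± 0.08) and Nt5e (0.69 ± 0.13), and 11 lower (all genes 22.5% and 26.7%), with a median of -1.23 beside 0.03. Myeloid cells had 2 higher (Axl at 2.51 and Asap1 at 1.3) and 10 lower (all genes 22.4% and 29.7%), and neurons 2 (Rbms3 at 2.14 and Arhgef17 at 1.14) and 8 (all genes 25.4% and 25.6%). OPCs had 4 higher, led by F3 (1.47), and 4 lower (all genes 21.0% and 16.2%), and committed OPCs 1 (Tgfb2 at 0.77) and 1 (all genes 22.9% and 8.75%).

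Upstream Hippo genes were less uniform. Of 20 kinases and regulators, 17 were tested, and endothelial cells had 8 higher and 5 lower (all genes 21.5% and 26.2%), with Ptpn14, which is also in the list of targets, Fat4 (2.80 ± 0.31), an atypical cadherin, and Wwc2 (1.5 ± 0.13) in front. Fibroblasts had 7 higher, with Ptpn14, Fat4 (3.31 ± 0.14) and Wwc2 (1.45 ± 0.08) in front, and 2 lower (all genes 21.0% and 20.4%). Astrocytes had 2 higher, Wwc1 (3.80 ± 0.10), which encodes the scaffold KIBRA, and Wwc2 (0.54 ± 0.08), and 3 lower (all genes 23.3% and 18.8%). Oligodendrocytes had 2 higher, the kinase gene Map4k4 (1.09 ± 0.07) and Fat1 (0.87 ± 0.09), and 6 lower (all genes 22.5% and 26.7%). OPCs had 4 higher, led by Limd1 (1.56) and Wwc1 (1.54), and 0 lower (all genes 21.0% and 16.2%). Committed OPCs had 4 higher, led by Wwc1 (1.32), and 2 lower (all genes 22.9% and 8.75%), myeloid cells 3, led by Stk4 (1.66), and 4 (all genes 22.4% and 29.7%), and neurons 1 (Wwc1 at 1.03) and 8 (all genes 25.4% and 25.6%).

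Of the 6 other TEAD genes and cofactors only Vgll4, an antagonist of YAP binding to TEAD, passed the filter on low counts, and it was higher in oligodendrocytes (0.88 ± 0.08) and lower in neurons (-1.54 ± 0.15). Of 4 further CCN genes only Ccn3 passed the filter, and it was higher in fibroblasts (3.14 ± 0.14) and lower in astrocytes (-0.60 ± 0.18) and committed OPCs (-1.75 ± 0.40). Immediate-early genes, which respond to tissue handling among other stimuli, moved with the same cells: 11 of 11 tested were higher in fibroblasts (all genes 21.0%, Klf4 at 2.62 and Egr1 at 2.39 in front) and 10 of 11 in endothelial cells (all genes 21.5%, Klf2 at 4.97 in front), while 9 of 11 were lower in oligodendrocytes (all genes 26.7%). Of the other types, astrocytes had 2 higher and 4 lower (all genes 23.3% and 18.8%), myeloid cells 4 and 2 (all genes 22.4% and 29.7%), OPCs 1 and 4 (all genes 21.0% and 16.2%), neurons 1 and 8 (all genes 25.4% and 25.6%) and committed OPCs 0 and 2 (all genes 22.9% and 8.75%). Their part in the levels of Ccn1 and Ccn2 was not tested.

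The RNA of the 9 genes was divided unequally between called nuclei and droplets with few UMIs. Droplets under 500 UMIs, called empty below, were not tested for a nucleus, so nuclei with few UMIs may be among them. In droplets with at least 100 and under 500 UMIs, Ccn2 was at 93.1 to 273 CPM (mean 166) in the 8 libraries, against 33.7 to 136 CPM (mean 76.2) in nuclei. Ccn1 was at 10.9 to 32.3 CPM in these droplets and at 8.64 to 15 CPM in nuclei, while Tead1 was at 31.3 to 40.8 CPM in the droplets and at 76.9 to 158 CPM in nuclei. In means of CPM, Tead1 was 3.26-fold and Wwtr1 2.15-fold higher in nuclei, and Ccn2 2.18-fold and Ccn1 2.03-fold higher in the droplets. With edgeR's TMM scaling Tead1 (1.17 ± 0.10) and Wwtr1 (0.58 ± 0.12) were higher in nuclei, beside 37.9% of all genes, and Ccn2 (-1.65 ± 0.24), Ccn1 (-1.55 ± 0.18), Amotl2 (-0.86 ± 0.07) and Amotl1 (-0.54 ± 0.10) were lower, beside 36.3%. Scaling by library size moved the median of all genes from 0.03 to 0.56, and then Tead1 (1.70), Wwtr1 (1.10), Yap1 (0.75), Lats1 (0.69) and Lats2 (0.55) were higher, beside 51.2%, and Ccn2 (-1.12) and Ccn1 (-1.01) lower, beside 24.7%. Tead1, Wwtr1, Ccn1 and Ccn2 thus kept their call and direction under both scalings. These droplets and this scaling were added after the data had been seen, because droplets with 10 to 100 UMIs, the window planned, held only 9 to 60 UMIs of each gene in the 8 libraries together. In that window Tead1 (1.83 ± 0.30) and Wwtr1 (1.35 ± 0.44) were higher in nuclei, beside 24.1% of all genes, and none was lower, beside 8.27%. On simulated counts edgeR made more false calls against the droplets of that window than in any other comparison, which limits its calls there. With library-size scaling in that window Tead1 (1.53 ± 0.32) passed alone, beside 15% of all genes higher and 11.0% lower, and Wwtr1 was at 1.04 ± 0.46 (adjusted p = 0.0943). When each library was fitted as a block, since nuclei and droplets of 1 library share their animals, 4 of the 9 genes passed in that window, Tead1 (1.89 ± 0.35), Wwtr1 (1.43 ± 0.39) and Lats2 (0.94 ± 0.36) higher and Ccn2 (-0.71 ± 0.27) lower, beside 23.2% and 7.48% of all genes.

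Between the genotypes none of the 9 genes was called in any cell type. The label was checked first: Piezo2 in oligodendrocytes was at 506, 389, 407 and 489 CPM in the control libraries (replicates 1 to 4) and in the libraries labelled cKO (replicates 10 to 13) at 530.5, 535, 572 and 521 CPM. Its count was thus not lower in the libraries labelled cKO, each of which was above each control library. A 3′ count of the whole gene need not change when a floxed exon is removed, so this checks nothing. Olig2, whose locus carries the cre, was at 23.7, 31.5, 41.1 and 27.7 CPM in control and at 44.5, 52.2, 49.0 and 43.6 CPM in cKO oligodendrocytes, again without overlap. In oligodendrocytes 5.73% of genes with a mean of at least 1 CPM did not overlap. The filter on low counts left 9 of the genes in oligodendrocytes, astrocytes and fibroblasts, 5 in OPCs and in committed OPCs, 4 in endothelial cells, 3 in myeloid cells and 2 in neurons, 46 edgeR tests in all, of which 4 (8.70%) had an unadjusted p below 0.05, beside 6.61% of the tests of all genes over the same 8 types. Among all genes tested, 0.0829% were called in oligodendrocytes, 0.306% in OPCs and 0.0% in each of the other 6 types. Of 318 further tests of genes of the pathway lists, none was called by edgeR and 27 (8.49%) had an unadjusted p below 0.05. DESeq2 called 0 of the 9 genes in every cell type as well.

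Tead1 was the one gene of the 9 whose oligodendrocyte levels did not overlap between the genotypes. It was at 10.0, 10.3, 9.58 and 8.48 CPM in the control libraries (replicates 1 to 4) and in the libraries labelled cKO (replicates 10 to 13) at 17.8, 12.4, 19.4 and 13.8 CPM, so each library labelled cKO was above each control library. Such a lack of overlap, in either direction, held for 5.73% of genes with a mean of at least 1 CPM. The log2 difference was 0.69 ± 0.17 with an unadjusted p of 0.00177 and an adjusted p of 0.241 by edgeR, which did not pass, and the adjusted p ran from 0.0948 to 0.58 over the other settings. The log2 difference ran from 0.48 to 1.43 over these settings, highest with the ambient profile subtracted (1.43 ± 0.29). Taking a similar level from both genotypes raises a log2 difference by itself. The ambient level of Tead1 in oligodendrocytes was 5.54, 6.38, 6.57 and 5.92 CPM in control and 6.64, 5.58, 5.25 and 7.52 CPM in cKO libraries, which overlap. The summed astrocyte markers in oligodendrocytes were at 614 to 766 CPM in control and 605 to 966 CPM in cKO libraries. Of the 14 marker lists of other cells, 2 did not overlap between the genotypes in oligodendrocytes: the OPC list was at 297 to 389.7 CPM in control and 269 to 288 CPM in cKO libraries, and the pituitary list at 26.5 to 1029 and 1.59 to 16.1 CPM. The part of these lists in the Tead1 value was not tested.

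The other 8 genes overlapped between the genotypes in oligodendrocytes. Amotl1 was at 1.95, 1.88, 2.92 and 2.75 CPM in control and at 3.20, 4.10, 2.52 and 5.80 CPM in cKO libraries. Its log2 difference was 0.72 ± 0.30 (unadjusted p = 0.033, adjusted p = 0.526 by edgeR), at a level not told apart from background above. Yap1 was at 2.92 to 5.82 CPM in control and at 2.79 to 3.83 CPM in cKO libraries, a log2 difference of -0.27 ± 0.26, and Wwtr1 differed by 0.02 ± 0.24. The differences of Lats1, Lats2 and Amotl2 were -0.09 ± 0.12, 0.11 ± 0.13 and -0.08 ± 0.11, and those of Ccn1 and Ccn2 were 0.35 ± 0.40 and 0.38 ± 0.27.

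In astrocytes and fibroblasts, where Yap1, Wwtr1 and Tead1 were far above the ambient level, their differences were small. Yap1 differed by -0.01 ± 0.12 in astrocytes and by -0.04 ± 0.15 in fibroblasts, Wwtr1 by -0.07 ± 0.20 and -0.01 ± 0.13, and Tead1 by -0.22 ± 0.12 and -0.21 ± 0.14. Lats2 in astrocytes was at 158, 162, 116 and 104 CPM in control and at 172, 167, 178 and 168 CPM in cKO libraries, without overlap, as for 4.25% of genes with a mean of at least 1 CPM there. Its log2 difference was 0.32 ± 0.14 (unadjusted p = 0.038, adjusted p = 0.619 by edgeR). Ccn2 in fibroblasts, given per library above, overlapped between the genotypes and differed by 0.06 ± 0.36 (adjusted p = 0.999 by edgeR), and its sign turned in 4 of the 8 fits that left out 1 library. Among the rarer types, Tead1 in committed OPCs was at 10.7, 79.3, 86.5 and 109.8 CPM in control and at 58.1, 24.6, 45.1 and 45.1 CPM in cKO libraries, which overlap, with a log2 difference of -1.02 ± 0.39 (unadjusted p = 0.0192, adjusted p = 0.757 by edgeR).

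**Figure D5:**
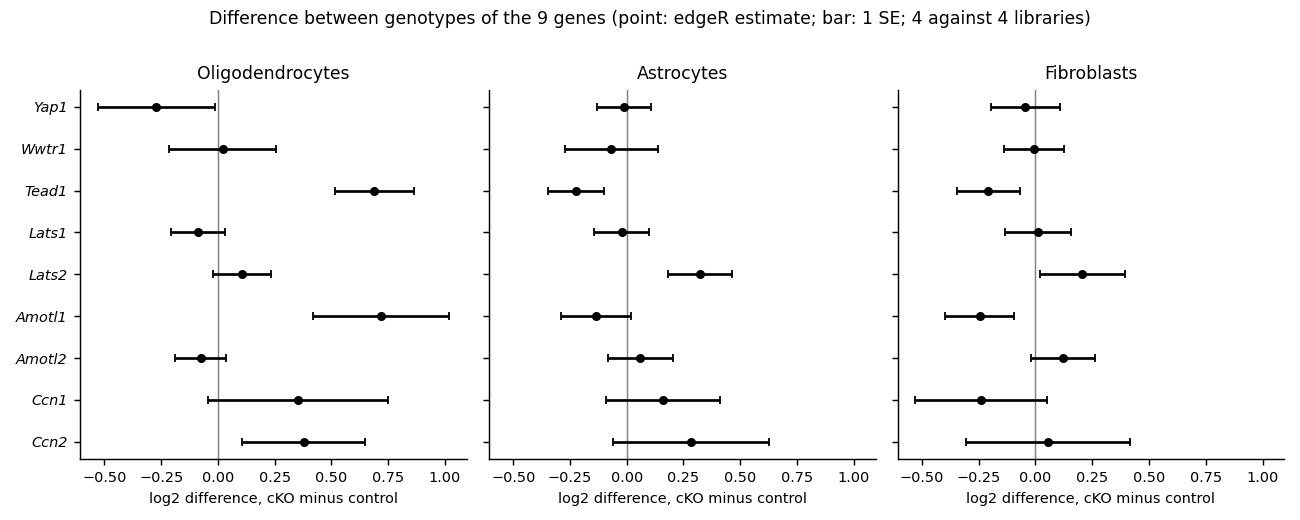
Log2 difference of each of the 9 genes between libraries labelled cKO and control libraries (4 against 4) in oligodendrocytes, astrocytes and fibroblasts, with a point at the edgeR estimate, a bar of 1 SE to each side and a line at 0. Tead1 in oligodendrocytes lies at 0.69 with an adjusted p of 0.241, and Yap1 and Wwtr1 in astrocytes and fibroblasts lie between -0.07 and -0.01.

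Whether the genotype difference itself differed between cell types was tested in 1 fit of oligodendrocytes, astrocytes and fibroblasts. The difference of Tead1 in oligodendrocytes exceeded that in astrocytes by 0.90 ± 0.21 and that in fibroblasts by 0.90 ± 0.21 on the log2 scale, with adjusted p of 0.405 and 0.52 by edgeR, beside 0.0246% and 0.0123% of all genes called. Cell types of 1 library come from the same animals, and with the library as a block the values were 0.91 ± 0.14 (adjusted p = 0.00186) and 0.89 ± 0.14 (adjusted p = 0.00409), which passed, beside 0.0649% and 0.0472% of all genes. No other of the 9 genes passed in either fit. Amotl1 came next, with 0.85 ± 0.32 against astrocytes and 0.98 ± 0.32 against fibroblasts (unadjusted p = 0.0118 and 0.0045, adjusted p = 1 in both by edgeR). With the ambient profile subtracted, the Tead1 values were 1.58 ± 0.27 and 1.59 ± 0.28 (adjusted p = 0.0181 and 0.0277 by edgeR), beside 0.0686% and 0.0312% of all genes called. Subtraction from low levels widens a log2 difference by itself, and the SE leaves out the error of the ambient share. These 2 calls are therefore no separate support. The values of Amotl1, a gene at the ambient level in oligodendrocytes, were 4.61 ± 1.3 and 4.74 ± 1.3 and did not pass (adjusted p = 0.495 and 0.413 by edgeR).

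The Tead1 values of oligodendrocytes were also read by cluster, as a description. The mean of the cKO libraries was above that of the control libraries in 11 of 15 oligodendrocyte clusters. Among the other 8 genes this number ran from 4 for Yap1 to 13 for Ccn2, and it was 12 for Gfap and 10 for Aqp4, both astrocyte markers. With the same weight given to each of the 14 clusters that had a value in all 8 libraries, Tead1 was at 7.64 to 10.4 CPM in control and at 11.7 to 16.4 CPM in cKO libraries, again without overlap. In astrocytes the mean of the cKO libraries was the higher one in 1 of 8 clusters.

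Over all nuclei of a library none of the 9 genes was called, beside 0.00547% of all genes. Tead1 had a log2 difference of -0.34 ± 0.16 (unadjusted p = 0.0548, adjusted p = 0.657 by edgeR), opposite in sign to that in oligodendrocytes, and Yap1 and Wwtr1 differed by -0.23 ± 0.14 and -0.22 ± 0.21. These sums mix cell types, so fewer nuclei of a type and less RNA per nucleus cannot be told apart in them. Astrocytes were 13.5 to 30.6% of nuclei in control and 16.4 to 28.1% in cKO libraries, and oligodendrocytes 37.0 to 52.6% and 51.9 to 58.3%.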

How the data were processed

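Single-nucleus RNA sequencing (10x 3′ v3.1 chemistry) of 8 optic nerve libraries was analysed, 4 control and 4 labelled cKO. The deposited files hold raw UMI counts per gene and barcode, which the authors made with Cell Ranger 7.0.0 on GRCm39 and left unfiltered, so nuclei had to be called again. Barcodes were kept as nuclei with an EmptyDrops-style test (at least 500 UMIs, false discovery rate 0.01), at least 200 genes and at most 5% mitochondrial UMIs, and doublets were removed at 0.8% per 1000 nuclei. Leiden clusters (scanpy 1.11.5, resolution 3) were named from markers, and a cluster with at least 3 B-cell genes among its 10 leading genes was left unnamed, a rule added after the data had been seen. Nuclei of a cell type were summed within each library (at least 10 nuclei and 1000 counts) and tested with edgeR 4.0.16 (TMM, filterByExpr, quasi-likelihood, Benjamini-Hochberg over all genes). DESeq2 1.42.0, other filters, thinning, ambient subtraction, other clusters and leaving out libraries were alternatives. edgeR and DESeq2 were checked on simulated counts, where edgeR made more false calls against droplets of 10 to 100 UMIs than in any other comparison.

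Of genes outside the 9, those named were the 3 with the largest called difference per list and cell type, the 3 most like each gene, and Piezo2 and Olig2 for the label check. A few results of these kinds are not reported here. The 9 genes and the lists were chosen with earlier results of these data known. Cell types of 1 library, and its nuclei and empty droplets, share their animals, which is where the library block comes from.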

Additional observations from a re-analysis of the deposited data

Results flagged for a closer look

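In 9 of 144 groups of 4 libraries (6.2%), 1 library stood apart by Dixon's ratio of gap to range, where chance gives about 1 in 20. Among control libraries these were Lats2 in oligodendrocytes of replicate 4 (23.6 CPM, the nearest other library 34.2), Wwtr1 in astrocytes of replicate 1 (263 CPM, nearest 155), Wwtr1 in fibroblasts of replicate 1 (273 CPM, nearest 212), Ccn1 in fibroblasts of replicate 3 (18.9 CPM, nearest 46.8), Ccn2 in fibroblasts of replicate 2 (1024 CPM, nearest 306) and Wwtr1 in endothelial cells of replicate 4 (141 CPM, nearest 340.0). Among libraries labelled cKO they were Amotl1 in OPCs of replicate 11 (20.7 CPM, nearest 40.9), Yap1 in myeloid cells of replicate 13 (0 CPM, nearest 6.20) and Amotl1 in neurons of replicate 13 (31.8 CPM, nearest 16.4).

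The genotype difference of Tead1 differed between cell types with the library as a block, by 0.91 on the log2 scale between oligodendrocytes and astrocytes and by 0.89 between oligodendrocytes and fibroblasts. Without the block, as planned, neither passed (adjusted p = 0.405 and 0.52 by edgeR).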

How the results depend on the processing

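Calls by cell type numbered 52 and stayed between 41 and 52 under the other settings, except 25 of the 48 pairs tested once nuclei were thinned to 1000 UMIs. No gene was called between genotypes under any setting. The genotype difference between cell types had 0 calls without a block, 2 with the replicate block and 2 with the ambient profile subtracted, all of Tead1. Against empty droplets, 2 calls, both higher in nuclei beside 24.1% of all genes (8.27% lower), became 3 higher and 1 lower with the replicate block (all genes 23.2% and 7.48%), 4 in all, and 2 and 3 with droplets of 1 to 50 UMIs (19.7% and 26%), 5 in all. With settings added after seeing the data they became 2 and 4 with droplets of at least 100 and under 500 UMIs (37.9% and 36.3%), 6 in all, 2 and 4 with these and the block (38.7% and 36%), again 6, 5 and 2 with these and library-size scaling (51.2% and 24.7%), 7 in all, and 1 higher with library-size scaling at 10 to 100 UMIs (15% and 11%). Without control replicate 1 or 3, or cKO replicate 10 or 13, there were 3 calls, all higher. Neighbouring cell types gave 14 calls and 0 after thinning, where the smallest p of the exact test was still 0.00781. With a library left out they gave 0 to 0 calls, since 7 libraries allow no p below 0.0156 in the exact test.

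Of 1100 recomputed values of the 69 single results that were called or had an unadjusted p below 0.05 (and Ccn2 in fibroblasts), 1018 kept direction and call, 55 lost and 19 gained the call, and 8 changed sign. These were Tead1 in committed OPCs with control libraries only (0.034), Ccn2 in neurons with the ambient profile subtracted (0.401), Lats2 in OPCs after thinning (0.008), Lats2 against droplets of at least 100 and under 500 UMIs with the replicate block (-0.008), and the uncalled genotype difference of Ccn2 in fibroblasts without cKO replicate 11 or control replicate 1, 3 or 4 (-0.195 to 0.772 over the 8 libraries left out in turn, highest without control replicate 2). The cause was not tested. Of the other 94 single results, none of them called, 52 took both signs, among them the small genotype differences of Wwtr1 in oligodendrocytes (-0.185 to 0.167) and astrocytes (-0.164 to 0.223) and of Yap1 in astrocytes (-0.062 to 0.122) and fibroblasts (-0.187 to 0.088), and 9 were called under some setting. The library block changed no other call between genotypes, and no paired analysis was possible between genotypes themselves because they share no replicate number. Low counts limit the rarer cell types and the 5 genes at the ambient level in oligodendrocytes.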
